A study of Mus musculus with 67 samples.

Results

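Interferon-stimulated genes were followed through 3 RNA sequencing experiments on microglia of the mouse brain. They were a list of 38 genes, taken by gene symbol from tables of 24421 genes (LPS experiment) and 24411 genes (digest and driver experiments). All 38 were present in each table. After a filter on low counts the LPS experiment had 36 of them left for testing, the digest experiment 35 and the driver experiment 28. The members left out by it were Oas1a and Ifi44 in all 3, Oas3 also in the digest experiment, and Oas2, Oas3, Mx1, Mx2, Ifih1, Xaf1, Trim30a and Samd9l also in the driver experiment.

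The study compared ribosome-bound RNA of tagged cells, taken straight from brain homogenate, with the RNA of microglia isolated by cell sorting. With RiboTag, Cre recombinase switches on a haemagglutinin (HA) tag on the ribosomal protein Rpl22, and an anti-HA antibody then isolates these ribosomes with the RNA bound to them. All mice were C57BL/6J and carried the tag allele on both chromosomes, written RLP22HA/HA in the labels, and Cre from the Cx3cr1 locus on 1 chromosome. Cx3cr1 is active in microglia and also in other macrophages and monocytes, so the tag is not restricted to microglia by the driver alone. In the LPS and digest experiments every mouse was CX3CR1CreER/WT and had received tamoxifen, as 4 doses of 5 mg given at an age of 4 to 6 weeks. For the LPS experiment, an injection of lipopolysaccharide (LPS, from the outer membrane of bacteria) at 2.5 mg/kg or of PBS was given 3 h before the brain was taken. Each treatment had 4 preparations, with 3 PBS and 4 LPS libraries for each: anti-HA pull-down from whole brain, pull-down with an isotype IgG, sorted cells (GR1 negative, CD45 intermediate, CD11b positive), and pull-down from sorted cells. The digest experiment had pull-down (3 libraries), IgG (4), cells sorted after a 20 min enzyme digest at 37 °C (4) and cells sorted without it (4). The driver experiment had pull-down, IgG and whole-extract input from CX3CR1CreER/WT mice with tamoxifen (3 of each), the same genotype without tamoxifen (2 of each) and CX3CR1Cre/WT mice, whose Cre needs no tamoxifen (3 of each). The labels give neither the sex of the mice nor their age when killed.

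Levels are CPM, the count of a gene per 1e+06 counts of its library after scaling, and can be compared between libraries of 1 experiment but not between genes, because gene lengths were not used. A fold change is on the log2 scale with its standard error (SE), and a gene was called when its edgeR p, adjusted over all genes tested, was under 0.05. Library totals ran from 166851 to 3513317 counts. They were lowest in the sorted pull-down (166851 to 669508) and in the pull-down without tamoxifen (186099 to 219521), where values of low genes rest on few reads. In the LPS experiment the summed level of 14 microglia markers was 48766 to 60983 CPM in pull-down, 45864 to 57597 CPM in sorted cells, 77575 to 119770 CPM in sorted pull-down and 1179 to 2583 CPM in IgG. Tmem119, a microglia marker, was at a mean of 4446 CPM in pull-down of PBS mice and 73.0 CPM in IgG. The summed level of 8 neuron markers was 1330 to 1688 CPM in pull-down, 3754 to 5091 CPM in IgG and 59.6 to 156 CPM in sorted cells. In sorted pull-down it was 165 to 806 CPM. The sum of 7 border macrophage markers was 722 to 1072 CPM in pull-down and 319 to 475 CPM in sorted cells, where Cd163 and Lyve1 had no read. The sum of 8 neutrophil and monocyte markers was 5.26 to 19.4 CPM in pull-down and 9.69 to 36.7 CPM in sorted cells, and reached 118 CPM in sorted pull-down of PBS replicate 2. In bulk libraries fewer cells of a type and less RNA per cell cannot be told apart.

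**Figure D1:**
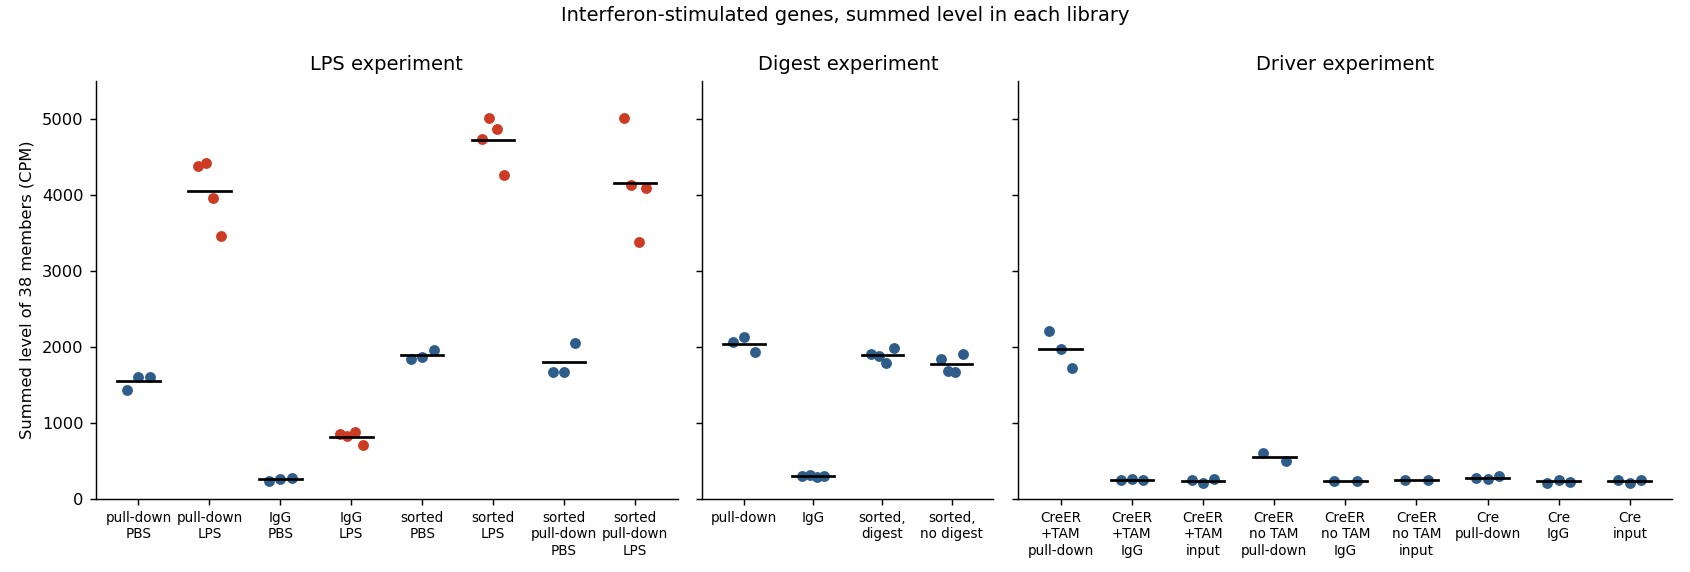
Each point is 1 library and shows the summed level of the 38 members in CPM. Black bars are group means, red points are LPS mice and blue points are all others. In the LPS experiment the LPS libraries lay above the PBS libraries in each of the 4 preparations, and in the driver experiment the pull-down with tamoxifen (1723 to 2204 CPM) stood above every other group.

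Interferon-stimulated genes are switched on when type I or type III interferon binds its receptor and the kinases behind it activate transcription factors such as Stat2. Stat2 and Irf9 act in a complex that binds the interferon-stimulated response element (ISRE), and GAS is a further element found in promoters that respond to interferon. LPS acts through the receptor Tlr4, which can induce interferon beta, and microglia are known to respond to interferon in infection, injury and ageing. The members were grouped by role as transcription factors (Stat2, Irf9, Irf1, Irf7), sensors of foreign nucleic acid (Ifih1, Ddx58, Dhx58, Zbp1), the oligoadenylate synthetase family (Oas1a, Oas2, Oas3, Oasl1, Oasl2), IFIT proteins that bind foreign RNA (Ifit1, Ifit2, Ifit3), other antiviral effectors (Bst2, Ifitm3, Mx1, Mx2, Rsad2, Cmpk2), the Isg15 and ubiquitin pathway (Isg15, Usp18, Herc6, Trim25), PARP proteins and a partner (Parp9, Parp12, Parp14, Dtx3l), and 8 others (Ifi35, Rtp4, Xaf1, Trim30a, Samd9l, Ifi44, Znfx1, Sp100). Some members are chromosomal neighbours, namely Ifit1, Ifit2 and Ifit3, then Rsad2 and Cmpk2, Oasl1 and Oasl2, Oas2 and Oas3, and Parp9, Parp14 and Dtx3l. No position was at hand for Mx1 and Mx2, so whether they have neighbours among the members was not searched.

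The promoters of 5 members that the results turn on are shown because the ISRE is the control element this gene class is known for. RefSeq windows (build GRCm38.p6) were at hand for 29 of the 38 members and ran from 250 bases before to 50 bases after the start. An ISRE was searched on both strands as GAAA, any 2 bases and GAAA, and was found in 12 of the 29 (41.4%), against 943 of 27025 windows of all genes (3.49%). A GAS element, searched on both strands as TTC, any 3 bases and GAA, was found in 6 of the 29 (20.7%), against 2288 of all windows (8.47%). An ISRE and a GAS match overlapped in 2 members and in 21 genes of all. These are letter matches and not measured binding, and a missing match says only that these letters are not in this window. The 250 bases before the start are given in the direction of the gene for Isg15 (chr4:156200819-156201068, minus strand), Ifit3 (chr19:34583279-34583528, plus strand), Rsad2 (chr12:26456453-26456702, minus strand), Bst2 (chr8:71537473-71537722, minus strand) and Irf1 (chr11:53769764-53770013, plus strand). Capitals mark ISRE matches in the first 4 and the GAS match in Irf1.
Isg15: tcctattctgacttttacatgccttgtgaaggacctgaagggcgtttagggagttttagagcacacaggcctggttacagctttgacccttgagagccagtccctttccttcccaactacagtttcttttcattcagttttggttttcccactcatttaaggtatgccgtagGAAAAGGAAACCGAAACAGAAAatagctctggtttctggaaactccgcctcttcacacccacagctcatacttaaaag
Ifit3: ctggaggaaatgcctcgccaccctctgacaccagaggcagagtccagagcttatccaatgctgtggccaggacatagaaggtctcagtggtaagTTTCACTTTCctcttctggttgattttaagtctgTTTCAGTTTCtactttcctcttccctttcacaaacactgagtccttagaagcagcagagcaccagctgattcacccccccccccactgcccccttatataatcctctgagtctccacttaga
Rsad2: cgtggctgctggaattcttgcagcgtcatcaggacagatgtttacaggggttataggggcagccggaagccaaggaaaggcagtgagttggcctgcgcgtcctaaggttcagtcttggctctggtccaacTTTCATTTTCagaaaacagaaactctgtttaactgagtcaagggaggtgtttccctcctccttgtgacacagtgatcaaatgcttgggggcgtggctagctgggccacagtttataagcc
Bst2: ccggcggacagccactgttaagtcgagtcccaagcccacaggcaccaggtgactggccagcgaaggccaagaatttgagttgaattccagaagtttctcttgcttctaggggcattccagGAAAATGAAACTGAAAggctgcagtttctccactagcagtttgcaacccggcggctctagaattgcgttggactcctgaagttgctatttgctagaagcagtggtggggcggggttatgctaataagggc
Irf1: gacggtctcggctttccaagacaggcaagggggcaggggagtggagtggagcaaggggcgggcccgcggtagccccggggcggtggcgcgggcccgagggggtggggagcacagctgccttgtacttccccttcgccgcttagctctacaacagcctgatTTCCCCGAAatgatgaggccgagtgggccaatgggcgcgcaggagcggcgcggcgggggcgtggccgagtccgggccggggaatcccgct
The matches of Isg15 were 3 overlapping ones that began 78, 72 and 66 bases before the start. Ifit3 had 2 separate matches at 156 and 122 bases, and Rsad2 had 1 at 120 bases. Bst2 had 2 overlapping matches at 130 and 124 bases, with a GAS match of its own that overlaps them, so that Bst2, which was not called after LPS, holds the same kind of match as Isg15, which was called in every preparation. Irf1 had no ISRE match and a GAS match at 90 bases, and the window of Irf7 held neither.

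In whole-brain pull-down, LPS raised 31 of the 36 tested members and lowered none, where 15.5% of all genes tested were called higher and 11.0% lower. The median log2 fold change of the members was 1.67, and that of all genes was -0.03. Of all called genes 58.6% were higher, a share that was 45.0% with DESeq2 size factors and 40.6% with total-count scaling. The LPS libraries lay above every PBS library for 32 of the 36 tested members and for 19.0% of all genes tested. The largest rises were in Oasl1, Rsad2 and Isg15. The 5 tested members that were not called were Bst2, Parp12, Dtx3l, Herc6 and Samd9l. In the same libraries border macrophage markers summed to 972 to 1072 CPM in PBS and 722 to 926 CPM in LPS mice, and endothelial markers to 62.7 to 72.3 and 35.6 to 54.0 CPM. Neither pair of ranges overlapped, and their part in the members' values was not tested.

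**Figure D2:**
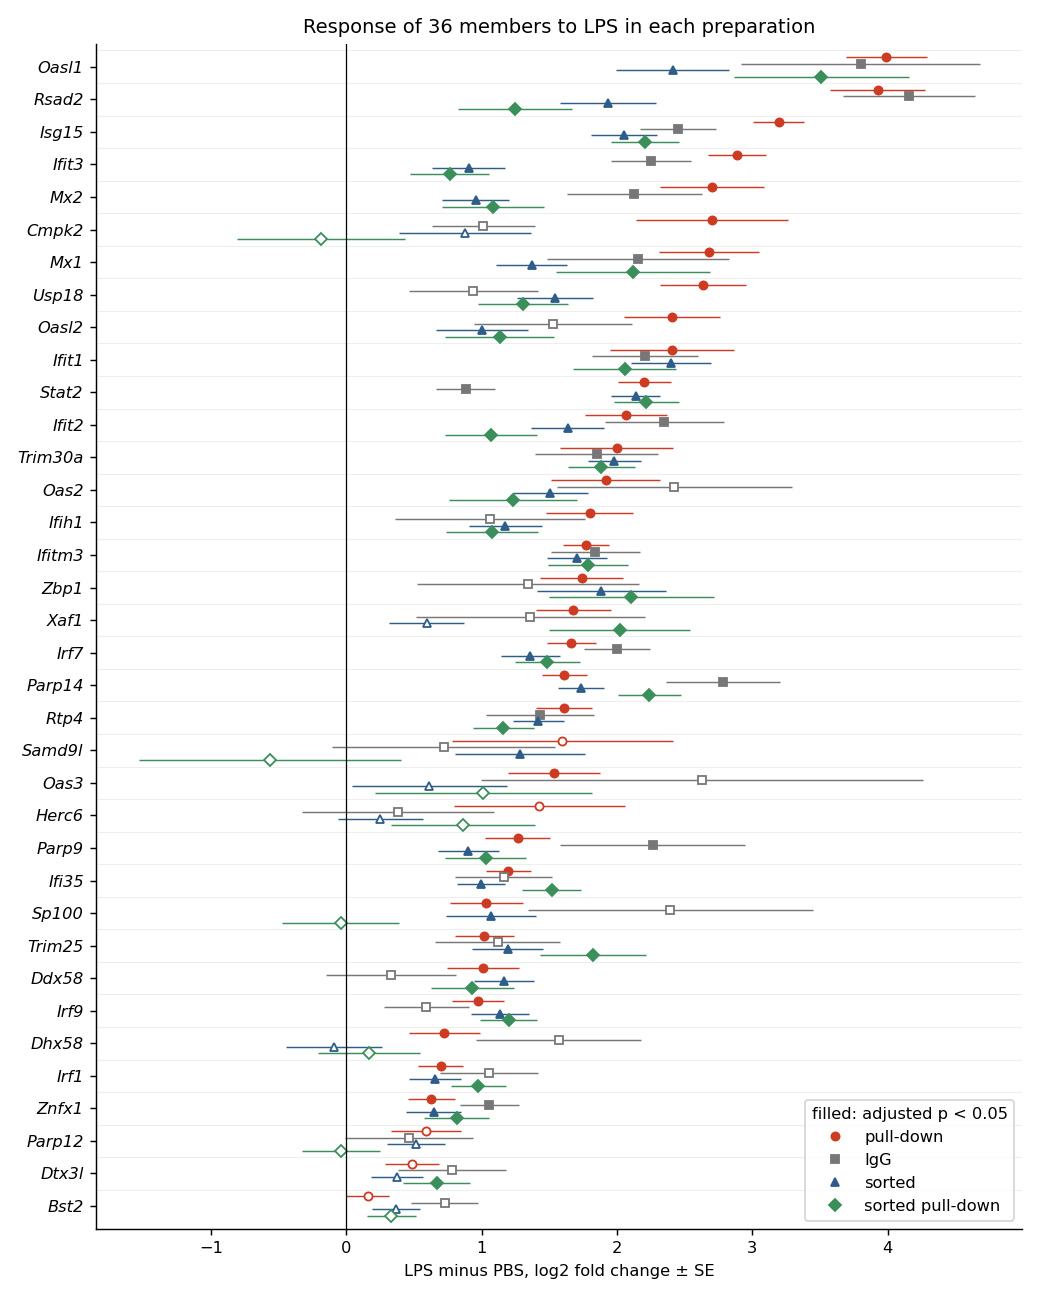
Log2 fold change of LPS against PBS mice, with its SE, for the 36 tested members in pull-down, IgG, sorted cells and sorted pull-down of the LPS experiment. Filled symbols were called at an adjusted p under 0.05. Nearly all values lie right of 0, the 4 preparations lie close together for Ifitm3 (1.70 to 1.84) and Trim30a (1.85 to 2.00), and they lie apart for Ifit3, Isg15 and Rsad2.

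All 4 transcription factors rose in pull-down. Stat2, a transcription factor activated by the type I interferon receptor, was at 29.9, 38.1 and 35.2 CPM in PBS mice and at 172, 164, 167 and 129 CPM in LPS mice. Irf7, the factor that amplifies interferon production, was at 41.6, 51.9 and 63.4 CPM and then at 178, 163, 159 and 162 CPM. Irf1, an early responder to cytokines, was at 113, 160 and 109 CPM and then at 235, 255, 171 and 161 CPM. The treatment groups did not overlap for any of the 3, but the gap was narrow for Irf1, whose highest PBS library reached 160 CPM beside the lowest LPS library at 161 CPM. The log2 fold changes were 2.20 ± 0.20 for Stat2, 1.66 ± 0.18 for Irf7, 0.97 ± 0.19 for Irf9 and 0.70 ± 0.17 for Irf1.

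The 4 sensors rose as well. Ifih1 (MDA5), which detects long double-stranded RNA, changed by 1.80 ± 0.32, and Ddx58 (RIG-I), which detects RNA ends, by 1.01 ± 0.27. Zbp1, a sensor of left-handed nucleic acid that can start cell death, changed by 1.74 ± 0.30. Dhx58 (LGP2), which modulates the other RNA sensors, went from 31.4, 22.3 and 29.8 CPM to 64.2, 39.7, 36.0 and 37.8 CPM without overlap. The change was 0.72 ± 0.26 (adjusted p = 0.02954), and its call was lost without LPS pull-down replicate 1 (0.45, adjusted p = 0.26), PBS pull-down replicate 2 (0.58, adjusted p = 0.16) or PBS pull-down replicate 3 (0.78, adjusted p = 0.060). In the oligoadenylate synthetase family, whose classical members make the signal that activates RNase L, 4 of the 4 tested rose. Oasl1, which in mice has no synthetase activity and restrains Irf7 translation, went from 5.84, 8.54 and 10.7 CPM to 162, 142, 123 and 104 CPM, a change of 3.99 ± 0.30. Oasl2, Oas2 and Oas3 changed by 2.41 ± 0.36, 1.92 ± 0.40 and 1.54 ± 0.34. Oas1a was not tested and lay at 1.31 to 2.29 CPM in PBS and 2.16 to 7.58 CPM in LPS mice.

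Among the antiviral effectors, Rsad2 (viperin), an enzyme that makes a chain-terminating nucleotide, went from 16.8, 10.5 and 9.17 CPM to 226, 216, 179 and 115 CPM. Ifit3 went from 29.2, 36.8 and 26.0 CPM to 245, 266, 246 and 151 CPM. Ifitm3, a membrane protein that blocks virus entry, went from 70.1, 76.9 and 69.5 CPM to 273, 283, 271 and 153 CPM. In each of the 3 genes LPS replicate 4 was the lowest LPS library and still lay above all PBS libraries. The log2 fold changes were 3.93 ± 0.35 for Rsad2, 2.89 ± 0.22 for Ifit3 and 1.77 ± 0.17 for Ifitm3. The neighbours Ifit1 and Ifit2 changed by 2.41 ± 0.46 and 2.07 ± 0.30, and Cmpk2, a mitochondrial nucleotide kinase beside Rsad2, by 2.70 ± 0.56. In LPS mice Cmpk2 was at 4.32 to 25.8 CPM in pull-down and 11.1 to 25.5 CPM in IgG, and was not called between them. The GTPases Mx1 and Mx2 changed by 2.68 ± 0.37 and 2.70 ± 0.38. As background, C57BL/6 mice carry a truncated Mx1 allele, so its RNA is counted without a functional protein.

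Bst2 (tetherin), which holds budding virus at the cell surface, had the smallest log2 fold change of the 36 members in pull-down. It was at 390, 422 and 401 CPM in pull-down of PBS mice and at 493, 538, 379 and 389 CPM in LPS mice. The groups overlapped, and the log2 fold change was 0.16 ± 0.16 (adjusted p = 0.51). It was 0.37 ± 0.18 in sorted cells and 0.33 ± 0.18 in sorted pull-down, again without a call. In IgG, Bst2 went from 19.6, 22.1 and 21.7 CPM to 31.2, 36.1, 45.0 and 30.3 CPM, without overlap, and was not called either. A missed call does not show that Bst2 did not change.

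Isg15, a ubiquitin-like protein that is joined to other proteins, went from 51.1, 65.0 and 50.4 CPM to 501, 595, 559 and 387 CPM in pull-down, a change of 3.20 ± 0.19. Usp18, which removes Isg15 and dampens the interferon receptor, changed by 2.64 ± 0.32, and Trim25, a ubiquitin ligase for RIG-I, by 1.02 ± 0.22. Herc6, the main ligase of Isg15 in mice, was at 0.657 to 3.82 CPM in PBS and 3.39 to 11.9 CPM in LPS mice and was not called (1.42 ± 0.63, adjusted p = 0.057). Of the PARP group, Parp14 and Parp9 rose (1.61 ± 0.17 and 1.27 ± 0.24). Parp12 (0.59 ± 0.26) and Dtx3l (0.48 ± 0.20), the ubiquitin ligase that pairs with Parp9, were not called. Of the 8 others, 6 of the 7 tested rose. Znfx1, an RNA helicase, went from 86.9, 122 and 134 CPM to 171, 211, 161 and 162 CPM, without overlap. The changes ran from 0.63 ± 0.17 for Znfx1 to 2.00 ± 0.42 for Trim30a, a regulator of signalling by Toll-like receptors in mice. Trim30a was not called between pull-down (13.2 to 33.9 CPM) and IgG (10.9 to 27.3 CPM) of LPS mice.

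In sorted cells LPS raised 28 of the 36 members and lowered none (17.0% of all genes called higher, 17.6% lower). In pull-down from sorted cells it also raised 28 and lowered none (12.7% higher, 12.9% lower). The median log2 fold changes were 1.17 and 1.15, against -0.01 and -0.07 over all genes. There were 27 members called higher in both pull-down and sorted cells (11.0% of all genes), and 26 in these and in sorted pull-down (8.43% of all genes). Oas3, Dhx58, Xaf1 and Cmpk2 were called in pull-down and not in sorted cells, and Samd9l was called in sorted cells and not in pull-down. None of these 5 differed in the test of the difference itself, whose adjusted p was 0.12 or above. The count in sorted pull-down rested in part on 1 library, for it was 18 without PBS sorted pull-down replicate 3, and it was 23 without replicate 2, whose neutrophil and monocyte markers summed to 118 CPM. That sum was 19.5 and 32.0 CPM in the other PBS libraries of sorted pull-down and 46.3 to 82.3 CPM in the LPS libraries. Of the 14 microglia markers, 7 were called lower after LPS in pull-down, 8 in sorted cells and 11 in sorted pull-down. Their summed level had a mean of 54705 CPM in PBS and 55586 CPM in LPS mice in pull-down, 57079 and 47258 CPM in sorted cells, and 115580 and 90284 CPM in sorted pull-down. The part of these markers in the members' values was not tested.

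The transcription factors again rose together, with 4 of 4 called in each of the 2 sorted preparations. Stat2 was at 96.3, 78.9 and 88.3 CPM in sorted cells of PBS mice and at 463, 433, 380 and 288 CPM in LPS mice. In sorted pull-down it went from 37.1, 55.5 and 64.1 CPM to 332, 226, 203 and 190 CPM. The groups did not overlap in either, and the changes were 2.14 ± 0.18 and 2.22 ± 0.24. The change in sorted cells differed from that in whole-brain pull-down by -0.07 ± 0.27. Irf7 changed by 1.36 ± 0.22 and 1.49 ± 0.24, and Irf1 by 0.65 ± 0.19 and 0.98 ± 0.20. Among the other members in sorted cells, Ifit1 went from 23.8, 26.3 and 22.4 CPM to 111, 150, 127 and 124 CPM (2.40 ± 0.30), and Parp9 from 64.2, 48.4 and 53.3 CPM to 121, 125, 104 and 73.7 CPM (0.90 ± 0.23). In sorted pull-down, Parp14 went from 45.0, 44.4 and 45.5 CPM to 262, 232, 191 and 166 CPM (2.24 ± 0.23), and Dtx3l from 60.6, 74.0 and 74.2 CPM to 96.5, 165, 142 and 78.7 CPM (0.67 ± 0.25). None of these 4 had overlapping groups.

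The response to LPS was smaller in sorted cells than in whole-brain pull-down for 4 members, by the test of the difference. Of all genes 0.795% had a larger and 2.41% a smaller log2 fold change in sorted cells, whether they rose or fell. The 4 members were Ifit3, Rsad2, Mx2 and Isg15. Ifit3 in sorted cells went from 33.0, 31.8 and 23.8 CPM to 46.9, 71.7, 48.4 and 58.2 CPM. The groups did not overlap, but the change was 0.90 ± 0.27 in place of 2.89 ± 0.22 in pull-down, a difference of -1.98 ± 0.35 (adjusted p = 0.0001249). Rsad2 in sorted cells went from 22.9, 29.1 and 21.0 CPM to 60.6, 157, 83.1 and 73.7 CPM, and its difference was -1.99 ± 0.50 (adjusted p = 0.02017). Mx2 went from 43.1, 27.7 and 36.4 CPM to 91.9, 83.3, 63.1 and 51.1 CPM, with a difference of -1.75 ± 0.46 (adjusted p = 0.01025). Isg15 went from 41.3, 24.9 and 25.2 CPM to 133, 135, 131 and 125 CPM, with a difference of -1.15 ± 0.31 (adjusted p = 0.02476). On the pull-down side, Mx2 rested on 9, 8 and 2 reads in PBS mice. Rsad2 and Mx2 were not called between pull-down and IgG of PBS mice, and all 4 genes were also called higher after LPS in IgG. The part of that background in these differences was not tested.

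The 4 genes did not share 1 pattern of levels. For Ifit3 and Isg15 the LPS level was lower in sorted cells than in pull-down, with log2 fold changes of -2.03 ± 0.20 and -1.97 ± 0.17, and in PBS mice the values were -0.04 ± 0.28 and -0.82 ± 0.26. Mx2 was higher in sorted cells in both treatments, by 2.97 ± 0.40 in PBS and 1.23 ± 0.21 in LPS mice. Rsad2 was higher in sorted cells of PBS mice (0.99 ± 0.44) and lower in those of LPS mice (-1.01 ± 0.24). Leaving out single libraries kept the call of Ifit3 each time. The call of Isg15 was lost without PBS pull-down replicate 1 or 3, LPS pull-down replicate 2, PBS sorted replicate 1 or LPS sorted replicate 3, that of Rsad2 without PBS pull-down replicate 2 or 3, PBS sorted replicate 1 or 2 or LPS sorted replicate 3, and that of Mx2 without PBS pull-down replicate 3 or PBS sorted replicate 1. Over the 36 members the median difference was -0.31, against -0.06 over all genes.

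In pull-down from sorted cells these 4 genes rose too. Ifit3 there was at 50.8, 11.1 and 64.1 CPM in PBS and 79.8, 92.6, 36.9 and 93.0 CPM in LPS mice, so that the groups overlapped, with a change of 0.76 ± 0.29. Isg15 was at 43.0, 66.6 and 59.0 CPM and then at 286, 350, 166 and 211 CPM, a change of 2.21 ± 0.25. Rsad2 changed by 1.25 ± 0.42 and Mx2 by 1.08 ± 0.38. The response in sorted pull-down differed from that in sorted cells in 0 of the 36 members in edgeR's quasi-likelihood test and in 0 in DESeq2 (0% of all genes called in either direction in edgeR). At an unadjusted p under 0.05 there were 2 members, Xaf1 and Sp100 (5.56%), against 6.65% of all genes, which is no more than the background.

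Near copies of some members could share reads with them. Ifit3b, the copy of Ifit3, had a change of 2.05 ± 0.32 in pull-down, 0.16 ± 0.47 in sorted cells (adjusted p = 0.84) and a difference of -1.89 ± 0.57 (adjusted p = 0.04924). The labels do not say how the counting divided reads between such copies, so Ifit3 and Ifit3b may stand for 1 signal, and so may Trim30a and Trim30d.

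**Figure D3:**
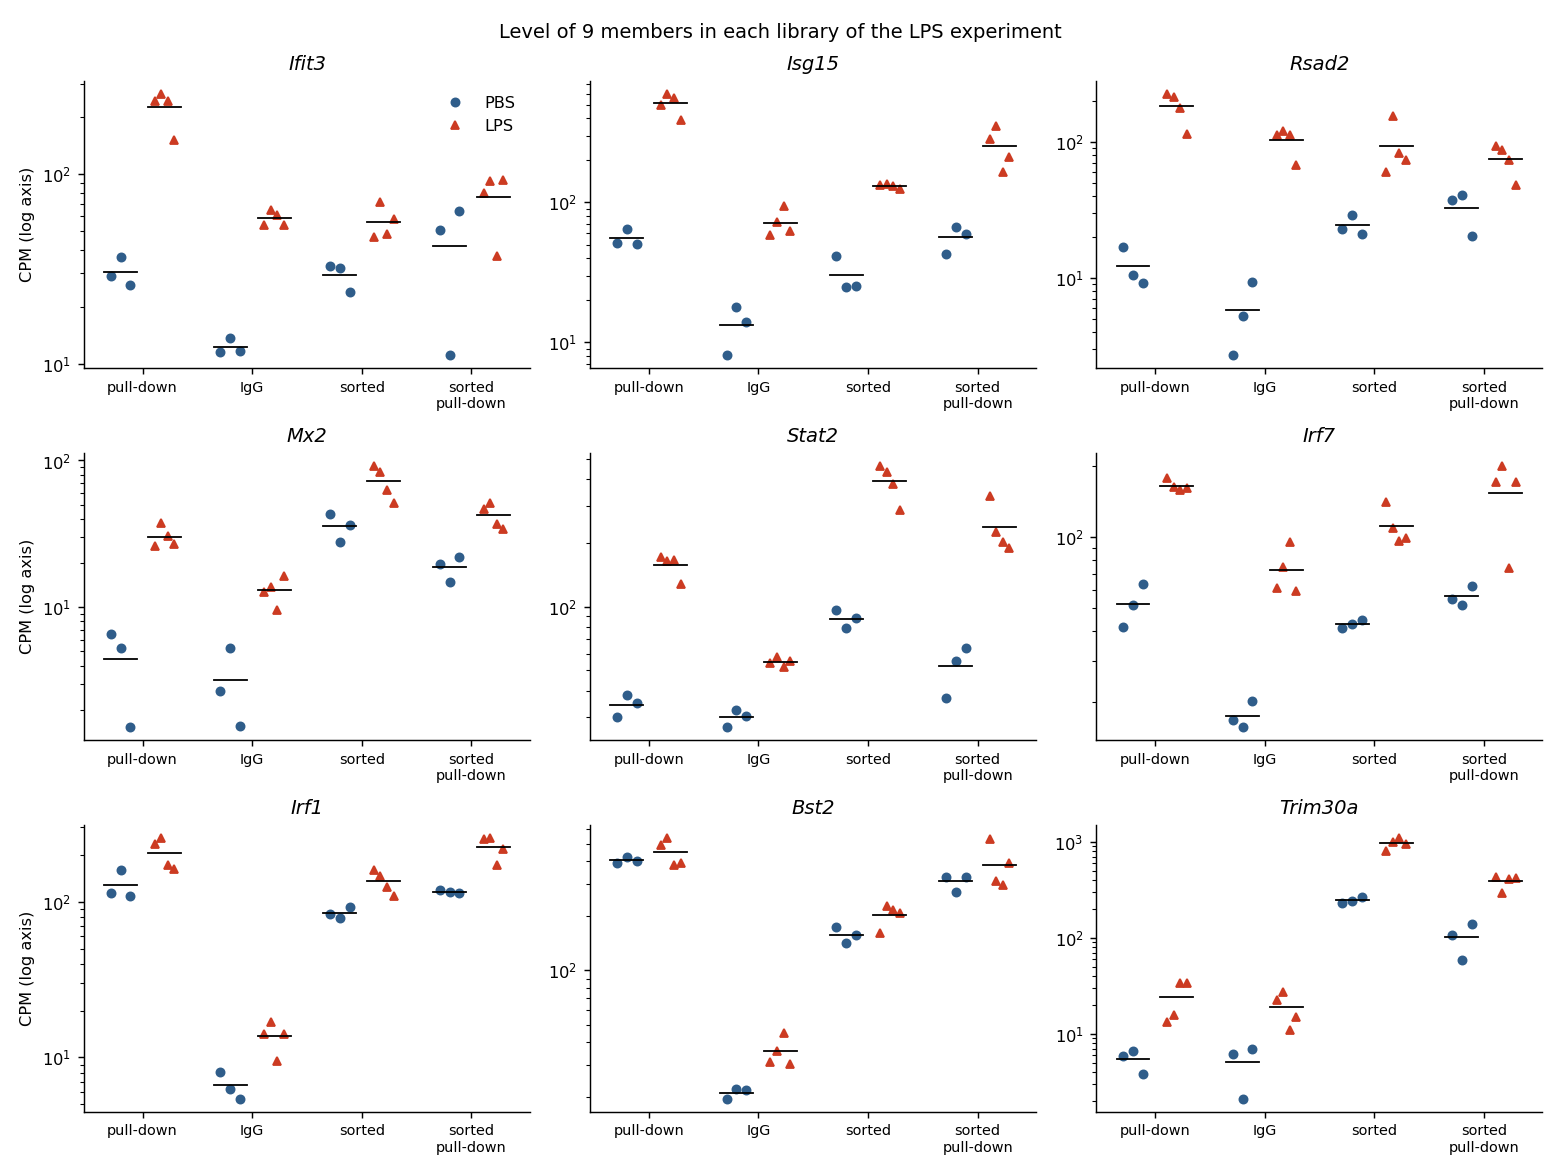
Level in CPM, on a log axis, of 9 members in each library of the LPS experiment, with PBS mice as circles, LPS mice as triangles and group means as bars. Ifit3 and Isg15 reach their highest levels in pull-down of LPS mice, Bst2 groups overlap in pull-down and sorted cells, and Trim30a is low in pull-down (3.82 to 33.9 CPM) and high in sorted cells (229 to 1108 CPM).

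The IgG libraries give the background that any RNA sticking to beads and antibody would leave, and here they also carried a response. LPS raised 16 of the 36 members in IgG and lowered none, where 1.00% of all genes were called higher and 0.149% lower. The median log2 fold change was 1.48, against -0.02 over all genes. All 16 were also called in pull-down, sorted cells and sorted pull-down, as were 0.673% of all genes in all 4 preparations: Ifit1, Ifit2, Ifit3, Isg15, Irf7, Rsad2, Oasl1, Mx1, Mx2, Ifitm3, Parp9, Parp14, Stat2, Rtp4, Trim30a and Znfx1. No sensor was among them, but each sensor had 7 reads or fewer in every IgG library of PBS mice. Every LPS library of IgG lay above every PBS library for Dhx58 and Zbp1, and the groups overlapped for Ifih1 and Ddx58.

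Rsad2 in IgG went from 2.70, 5.25 and 9.32 CPM to 113, 120, 113 and 68.0 CPM, a change of 4.16 ± 0.49 beside 3.93 ± 0.35 in pull-down. Isg15 went from 8.10, 17.9 and 14.0 CPM to 58.9, 72.2, 94.1 and 62.1 CPM, and Ifit3 from 11.5, 13.7 and 11.6 CPM to 53.9, 64.9, 61.4 and 54.0 CPM. Irf7 went from 16.9, 15.8 and 20.2 CPM to 61.0, 74.6, 95.5 and 59.1 CPM. In these 4 genes every LPS library lay above every PBS library, and the changes were 2.45 ± 0.28 for Isg15, 2.25 ± 0.30 for Ifit3 and 2.00 ± 0.24 for Irf7. Parp14 went from 2.03, 4.20 and 3.88 CPM to 25.5, 24.9, 24.5 and 17.7 CPM (2.78 ± 0.42). Rtp4, a chaperone-like protein induced by interferon, went from 5.40, 5.25 and 3.88 CPM to 17.7, 11.2, 12.3 and 11.1 CPM (1.43 ± 0.40). Znfx1 went from 35.8, 42.0 and 24.9 CPM to 58.1, 56.9, 76.4 and 91.7 CPM (1.06 ± 0.22), and the groups did not overlap in any of these 3. Oasl1 rested on 3 reads in the PBS libraries and 61 in the LPS libraries, a ratio of 15.95 with an exact 95% interval of 5.21 to 79.5 that covers counting error only.

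Between pull-down and IgG the response differed in 1 of the 36 members, Stat2. Of all genes 5.60% had a larger and 2.98% a smaller log2 fold change in pull-down, whether they rose or fell. A count of 1 cannot be told apart from that background. The count was 2 with DESeq2 size factors and with total-count scaling (1 larger and 1 smaller change in each) and 3 with DESeq2. Stat2 was at 27.0, 32.6 and 30.3 CPM in IgG of PBS mice and at 53.9, 57.7, 51.8 and 55.4 CPM in LPS mice, without overlap. The change of 0.88 ± 0.22 was smaller than the 2.20 ± 0.20 in pull-down by 1.32 ± 0.29 (adjusted p = 0.001282), and this call was kept whichever library was left out. The call of its rise in IgG was lost without PBS IgG replicate 1 (0.83, adjusted p = 0.13), PBS IgG replicate 3 (0.90, adjusted p = 0.064) or LPS IgG replicate 2 (0.86, adjusted p = 0.057). The other 35 tested members missed the threshold, among them Usp18 (1.70 ± 0.57, adjusted p = 0.06) and Parp14 (-1.17 ± 0.45, adjusted p = 0.062).

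The IgG background was set beside the pull-down level, as ratios of CPM that are each relative to their own library total and so are not the share of pull-down RNA that is background. The labels give 125 µg of anti-HA and 1 µg of IgG antibody. The summed level of the members in IgG was 16.5% of that in pull-down in PBS mice and 20.1% in LPS mice, and that of the 14 microglia markers was 2.67% and 2.98%. The sum of the members was 233 to 274 CPM in IgG of PBS mice and 712 to 876 CPM in LPS mice, beside 1435 to 1606 and 3461 to 4423 CPM in pull-down. The mean rose 3.19-fold in IgG, 2.62-fold in pull-down, 2.50-fold in sorted cells and 2.31-fold in sorted pull-down. Over the single members the median IgG level was 21.8% of the pull-down level in PBS and 17.3% in LPS mice, and it was above 100% in 5 and 3 of the 38. In the same IgG libraries 8 endothelial markers summed to 89.3 to 118 CPM in PBS and 39.0 to 50.5 CPM in LPS mice. The microglia markers summed to 1179 to 1689 CPM in IgG of PBS and 1197 to 2583 CPM in that of LPS mice, and the part of either in the members' values was not tested.

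At rest, most members were enriched on tagged ribosomes. In PBS mice 27 of the 36 were higher in pull-down than in IgG and 1 was lower (33.0% of all genes higher, 32.0% lower), with a median log2 fold change of 2.14. With DESeq2 size factors the median of all genes in that comparison moved from -0.02 to -0.53 and the members' counts were 24 higher and 2 lower. In the digest experiment 27 of 35 were higher and 2 lower (26.7% and 47.8% of all genes), with a median of 1.98. In the driver experiment with tamoxifen 24 of 28 were higher than IgG and 3 lower (30.8% and 35.3%), with a median of 2.47. Of the 28 members tested in all 3 experiments, 21 were higher in each, against 23.0% of all genes tested in all 3.

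Bst2 had the clearest enrichment. In pull-down of the digest experiment it was at 900, 901 and 876 CPM and in IgG at 36.6, 19.7, 17.0 and 33.9 CPM. In the driver experiment it was at 935, 822 and 704 CPM in pull-down with tamoxifen, 27.0, 14.5 and 10.0 CPM in IgG, and 34.3, 20.1 and 32.6 CPM in input. No pull-down library came near an IgG or input library, and the log2 fold changes against IgG were 4.26 ± 0.23 in PBS mice, 5.11 ± 0.19 in the digest and 5.53 ± 0.29 in the driver experiment. Parp14, a regulator of cytokine-driven transcription, was enriched by 4.23 ± 0.42, 4.44 ± 0.32 and 5.48 ± 0.66, and Irf1 by 4.23 ± 0.33, 4.15 ± 0.30 and 5.09 ± 0.48. Isg15 was enriched by 2.11 ± 0.29, 2.80 ± 0.25 and 3.67 ± 0.40, and Irf7 by 1.55 ± 0.26, 1.58 ± 0.23 and 2.76 ± 0.43.

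Some members were not enriched at rest. Stat2 was at 29.9 to 38.1 CPM in pull-down and 27.0 to 32.6 CPM in IgG of PBS mice (0.21 ± 0.24), and at 28.7 to 36.1 and 28.0 to 39.6 CPM in the digest experiment (-0.04 ± 0.21). Those ranges overlapped in both experiments, while in the driver experiment Stat2 was higher by 0.80 ± 0.30. Cmpk2 was lower in pull-down than in IgG in each experiment, by -1.90 ± 0.61, -1.88 ± 0.43 and -2.50 ± 0.62. Ifit1 was lower in the digest (-1.81 ± 0.83) and driver (-2.56 ± 0.85) experiments, and in LPS mice (-0.60 ± 0.25). In the digest experiment Ifit1 was at 0.758, 1.87 and 0 CPM in pull-down, beside 1.56 to 4.77 CPM in IgG. Mx1 had no read in IgG of the digest experiment and 27 reads in pull-down, which is at least 10.1-fold higher if the IgG libraries together are set to 3 reads.

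In LPS mice 31 of 36 members were higher in pull-down than in IgG and 1 lower (37.6% and 35.3% of all genes). Rsad2, Usp18, Mx2 and Stat2 were called here and not in PBS mice. Trim30a, Cmpk2, Herc6 and Samd9l were not called. For Rsad2 the pull-down stood 0.85 ± 0.22 above IgG, at 115 to 226 CPM beside 68.0 to 120 CPM, so that the ranges overlapped. For Stat2 it stood 1.53 ± 0.17 above IgG.

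**Figure D4:**
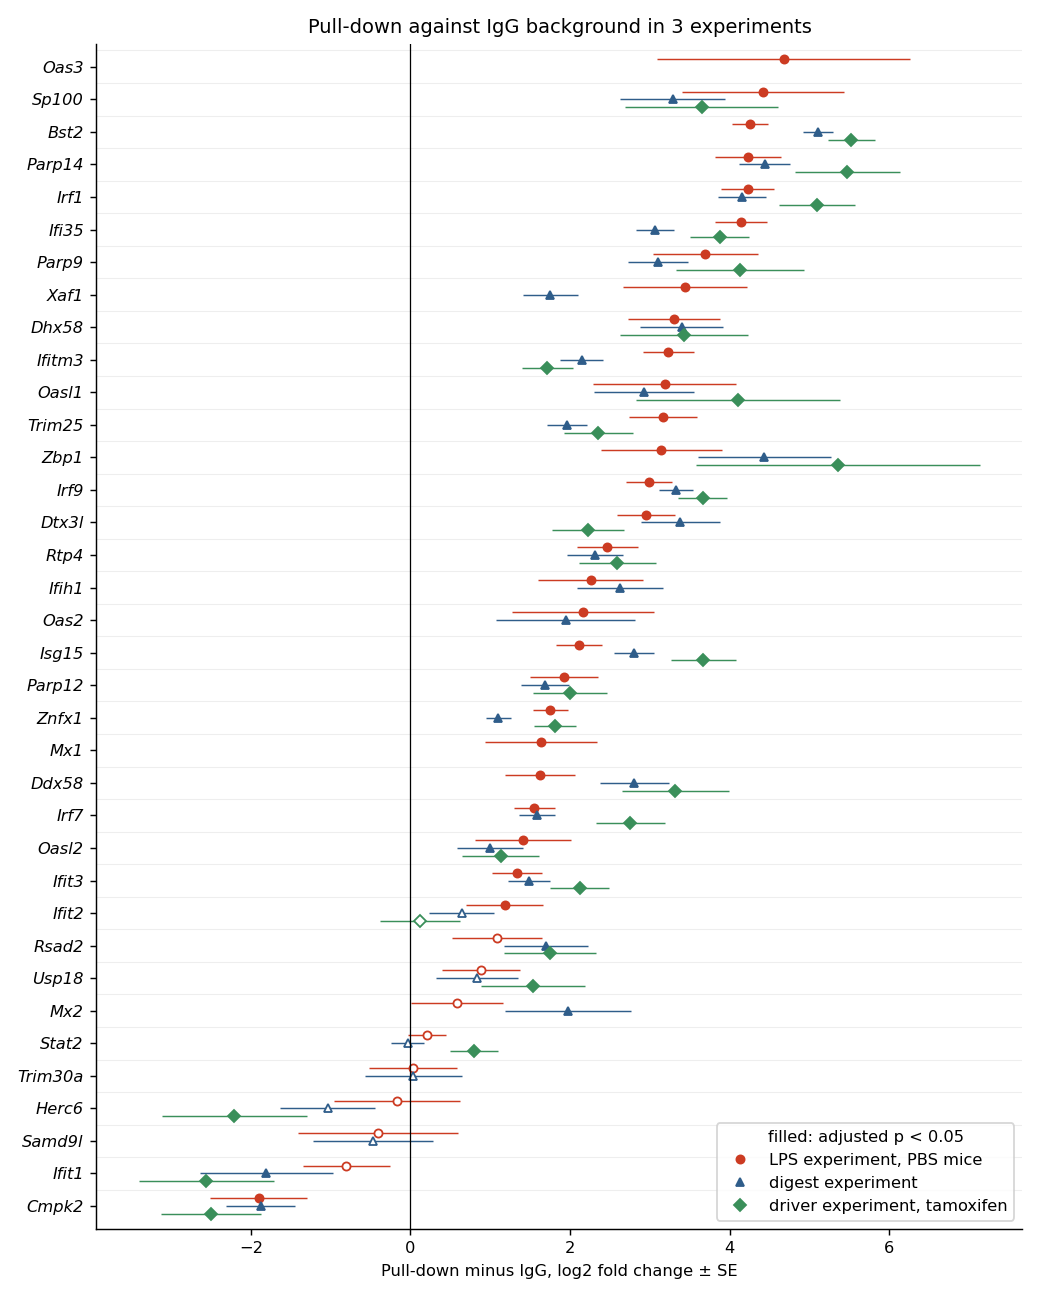
Log2 fold change of pull-down against IgG, with its SE, for members of 3 experiments without LPS. Filled symbols were called at an adjusted p under 0.05, and members that were not tested or had no read in a group have no symbol. Bst2, Parp14 and Irf1 lie above 4 in each experiment, and Cmpk2 lies below 0 in each.

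The driver experiment compared how far the enrichment depends on tamoxifen and on the driver. With tamoxifen, 24 of 28 members exceeded their input level in pull-down and 2, Ifit1 and Cmpk2, were lower (28.7% and 35.5% of all genes), with a median log2 fold change of 2.66. The members summed to 1723 to 2204 CPM in pull-down and 208 to 259 CPM in input. In CX3CR1Cre/WT mice 2 members, Bst2 (1.56 ± 0.26) and Ifi35 (1.30 ± 0.40), were higher than input and 2, Ifit1 and Cmpk2, lower (18.1% and 16.8% of all genes). Bst2 was at 72.6, 89.9 and 104 CPM in that pull-down, and the members summed to 263 to 292 CPM beside 209 to 246 CPM in input. Against the pull-down with tamoxifen, 25 of 28 members were lower in CX3CR1Cre/WT mice and none was higher (25.6% and 30.2% of all genes), with a median of -2.80. The sum of the members was 13.9% of that with tamoxifen, and that of the microglia markers 6.38%. Neuron markers in the same pull-downs summed to 5299 to 7023 CPM in CX3CR1Cre/WT and 1390 to 1786 CPM with tamoxifen, and the part of that difference was not tested. Replicate 1 of the CX3CR1Cre/WT pull-down stood apart by its astrocyte, endothelial and oligodendrocyte markers, and without it 3 members were higher and 3 lower than input and 24 were lower than with tamoxifen.

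Without tamoxifen, CX3CR1CreER/WT mice showed part of the enrichment. Bst2, Ifi35, Parp14, Irf1 and Trim25 exceeded their input level in pull-down and no member was lower (6.44% and 4.46% of all genes). Irf1 was at 21.5 and 25.7 CPM in pull-down without tamoxifen, 5.81 and 4.65 CPM in its input, and 88.6, 132 and 105 CPM in pull-down with tamoxifen. The groups did not overlap, and Irf1 was 2.14 ± 0.62 above input and differed by -2.20 ± 0.51 from the pull-down with tamoxifen. In all 11 members were lower than with tamoxifen and none was higher (18.3% and 16.4% of all genes). With total-count scaling 4 were lower and 1 higher, and the share of higher calls among all genes went from 47.2% to 70.3%. These libraries were 2 of low depth, in which 1 read is worth 4 to 5 CPM, and the count against input was 1 without pull-down replicate 1 and 2 without pull-down replicate 2 or without either input. The count against tamoxifen was 7 without tamoxifen pull-down replicate 1, 7 without pull-down replicate 1 and 6 without replicate 2 of the mice without tamoxifen. The sum of the members without tamoxifen was 28.0% of that with it, and that of the microglia markers 18.0%.

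Sorted cells and whole-brain pull-down differed in both directions. This comparison sets total RNA of sorted cells against ribosome-bound RNA of whole brain. Within it, sorting, RNA fraction and cell content cannot be told apart. In the LPS experiment, pull-down from sorted cells is set against each of these preparations further below. In PBS mice 21 of 36 members were higher in sorted cells than in whole-brain pull-down and 6 were lower (33.2% and 38.7% of all genes), with a median log2 fold change of 1.19 against -0.15 over all genes. With total-count scaling 21 were higher and 3 lower, and the median of all genes was 0.06. In the digest experiment 20 of 35 were higher and 4 lower after the digest (31.6% and 41.1%), and the same 20 were higher and 6 lower without it (31.9% and 40.9%). Of the 35 members tested in both experiments, 19 were higher in both (27.4% of all genes), 4 were lower in both (Isg15, Bst2, Ifitm3 and Zbp1; 34.5% of all genes), and none had opposite calls (0.339% of all genes).

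Trim30a had the largest difference. It was at 5.84, 6.57 and 3.82 CPM in pull-down and at 229, 239 and 269 CPM in sorted cells of PBS mice. In the digest experiment it was at 1.52, 3.73 and 1.91 CPM in pull-down and at 135, 149, 87.6 and 92.5 CPM in cells sorted after the digest. The log2 fold changes were 5.46 ± 0.41 and 5.52 ± 0.45, and 5.44 ± 0.22 in LPS mice. Its near copy Trim30d differed by 4.78 ± 0.43 in PBS mice. In pull-down of PBS mice Trim30a was not called against IgG (0.03 ± 0.55, adjusted p = 0.96).

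Herc6 was higher in sorted cells by 3.99 ± 0.61 in PBS mice and 3.86 ± 0.52 in the digest experiment, Mx2 by 2.97 ± 0.40 and 2.64 ± 0.42, Oas2 by 2.40 ± 0.43 and 3.04 ± 0.46, and Ifit1 by 2.46 ± 0.49 and 4.10 ± 0.77. These 4 had 6.57 CPM or less in each pull-down library of PBS mice and of the digest experiment. The other way, Bst2 was at 172, 141 and 156 CPM in sorted cells of PBS mice beside 390 to 422 CPM in pull-down, a difference of -1.36 ± 0.18. It was -1.81 ± 0.15 in the digest experiment, at 248, 218, 253 and 298 CPM in sorted cells. Isg15 differed by -0.82 ± 0.26 and -0.98 ± 0.20, Ifitm3 by -0.97 ± 0.23 and -0.79 ± 0.23, and Zbp1 by -1.01 ± 0.49 and -1.29 ± 0.36. Border macrophage and neuron markers were also lower in sorted cells than in pull-down, by the sums given above, and in the digest experiment at 256 to 338 beside 929 to 1058 CPM and at 2.86 to 12.7 beside 1013 to 1113 CPM. Their part in these differences was not tested.

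**Figure D5:**
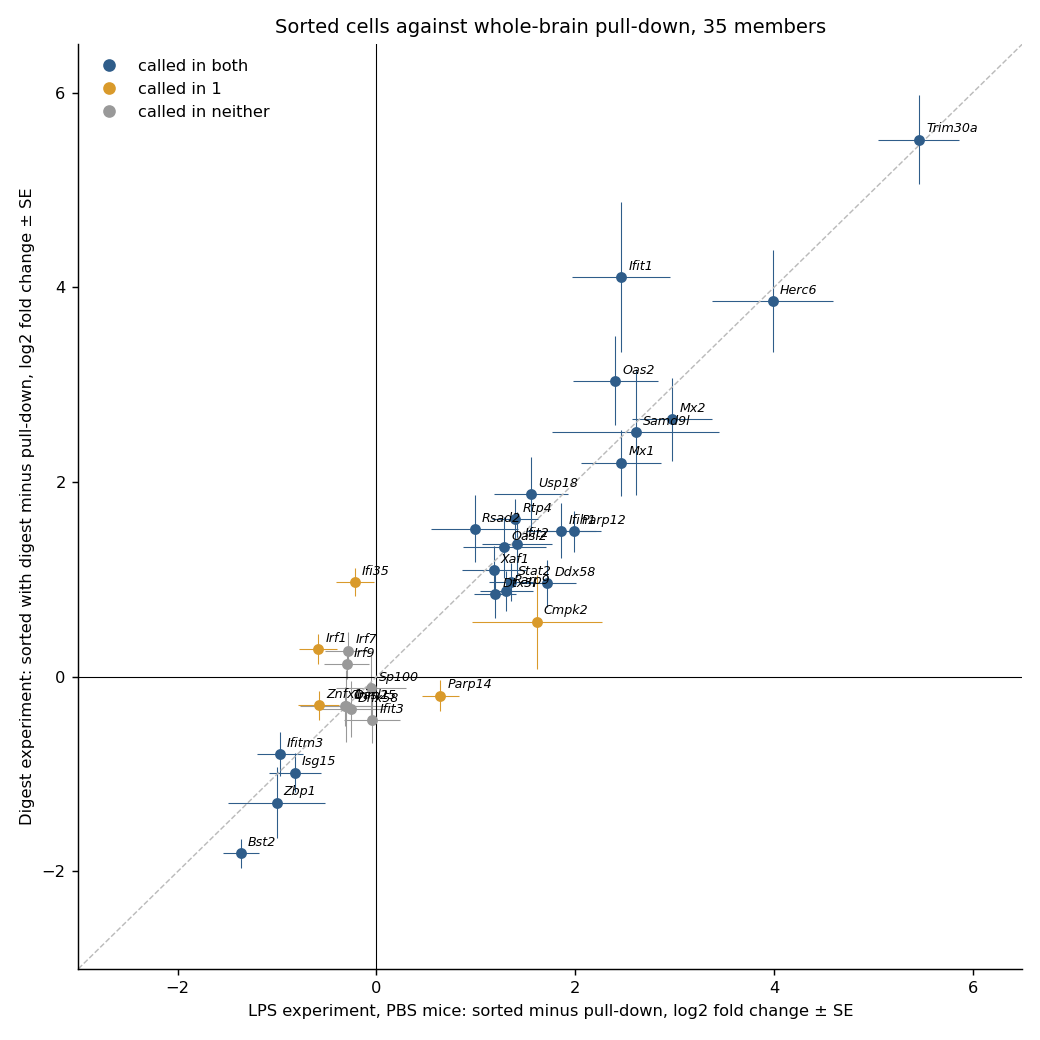
Log2 fold change of sorted cells against whole-brain pull-down, with SE, for the 35 members tested in both experiments, with PBS mice of the LPS experiment on the x axis and the digest experiment (sorted after digest) on the y axis. The dashed line marks equal values. Trim30a lies highest on both axes and Bst2 lowest.

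In LPS mice the balance between sorted cells and pull-down was 17 higher and 13 lower (33.1% and 43.0% of all genes), with a median of 0.04 against -0.26 over all genes. The 17 were also higher in PBS mice. Lower in both treatments were Isg15, Bst2, Ifitm3, Irf1, Zbp1 and Znfx1, and called lower in LPS mice and not called in PBS mice were Ifit3, Irf7, Oasl1, Oas3, Ifi35 and Dhx58. Oasl1 was at 35.2, 45.0, 37.8 and 28.5 CPM in sorted cells of LPS mice beside 104 to 162 CPM in pull-down, a difference of -1.88 ± 0.21. Of this set the difference in LPS response was past the threshold in Ifit3.

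No effect of the enzyme digest itself was detectable in these genes. None of the 35 members was called between cells sorted with and without it, in edgeR (adjusted p = 1 for each), where 0.121% of all genes were higher and 0.0173% lower. None passed an unadjusted p under 0.05 (4.52% of all genes did), and DESeq2 called 0 as well. The log2 fold changes ran from -0.34 ± 0.39 for Zbp1 to 0.49 ± 0.40 for Samd9l. Isg15 was at 48.2, 41.9, 66.0 and 62.9 CPM with and 58.0, 45.1, 46.4 and 59.1 CPM without the digest (0.07 ± 0.20), and Irf7 at 48.2, 53.4, 52.9 and 61.0 and at 59.7, 39.8, 56.4 and 42.2 CPM (0.12 ± 0.18). The libraries overlapped for both genes. Neutrophil and monocyte markers summed to 173 CPM in replicate 1 with and 230.4 CPM in replicate 4 without the digest, and to 4.77 to 15.3 CPM in the other 6 sorted libraries. Without those 2 libraries in turn the counts against pull-down stayed at 24 and 26.

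Ribosome-bound and total RNA of sorted cells were compared next. The pull-down from sorted cells had no IgG control of its own, so its background is not known. In PBS mice its neuron markers summed to 252 to 474 CPM, beside 59.6 to 116 CPM in sorted cells. Its oligodendrocyte markers summed to 400 to 661 CPM, beside 150 to 268 CPM. Microglia markers were higher there too, by the sums given above. The part of these markers in the members' values was not tested. Against total RNA of the sorted cells of PBS mice, 3 of 36 were higher on ribosomes (Isg15, Bst2 and Irf9) and 9 were lower (Oas2, Mx1, Mx2, Parp14, Dtx3l, Stat2, Xaf1, Trim30a and Herc6), where 16.6% of all genes were higher and 15.2% lower. In LPS mice 5 were higher (Isg15, Irf7, Bst2, Irf9 and Irf1) and 9 lower (15.2% and 16.7%). Bst2 was at 328, 270 and 329 CPM on ribosomes of sorted cells from PBS mice, above all sorted libraries (0.99 ± 0.19). Irf9 was at 158, 229 and 278 CPM beside 97.2, 98.3 and 128 CPM (1.05 ± 0.23). Mx1 was at 7.82, 7.40 and 5.06 CPM beside 33.0, 29.1 and 25.2 CPM (-2.15 ± 0.55), and Trim30a at 108, 59.2 and 138 CPM beside 229, 239 and 269 CPM (-1.20 ± 0.25). The count of 12 in PBS mice was 7 without PBS sorted pull-down replicate 1, and the call of Oas2 was lost with a replicate block (-0.99, adjusted p = 0.077).

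Trim30a differed between all 3 preparations, with 3.82 to 6.57 CPM in whole-brain pull-down, 59.2 to 138 CPM on ribosomes of sorted cells and 229 to 269 CPM in sorted cells of PBS mice. Against whole-brain pull-down, the ribosomes of sorted cells held more of 17 members and less of 4, Ifitm3, Ifi35, Trim25 and Znfx1 (24.7% and 29.0% of all genes). Herc6, Ifit1 and Mx2 were among the 17, by 2.46 ± 0.70, 2.44 ± 0.53 and 2.08 ± 0.47. Bst2 was not called in this comparison (-0.38 ± 0.18, adjusted p = 0.071), nor was Isg15 (-0.02 ± 0.26).

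The wider interferon pathway was read from a list of 60 other genes, of which 51 were tested. In pull-down LPS raised 26 and lowered none (15.5% and 11.0% of all genes), and in IgG it raised 5 and lowered none (1.00% and 0.149%). In sorted cells it raised 19 and lowered 5 (17.0% and 17.6%), and in sorted pull-down it raised 19 and lowered 4 (12.7% and 12.9%), so that the lower counts were below the background. None of 8 interferon ligand genes passed the filter. Of 8 receptor and kinase genes 2 rose in pull-down, a count that cannot be told apart from the 15.5% of all genes. Ifngr2, a chain of the interferon gamma receptor, was among them (0.47 ± 0.16, adjusted p = 0.01926). Ifnar2, a chain of the type I receptor, fell in sorted pull-down (-0.94 ± 0.22, adjusted p = 0.0004301), where 12.9% of all genes were lower. Socs3, a feedback inhibitor of cytokine receptors, rose from a mean of 19.6 to 1188 CPM in pull-down (5.92 ± 0.22) and from 126 to 1485 CPM in sorted cells (3.56 ± 0.18). Myd88, the adaptor of most Toll-like receptors, rose in all 4 preparations, by 2.15 ± 0.16 in pull-down and 1.06 ± 0.29 in IgG. Mb21d1 (cGAS), the cytosolic DNA sensor, rose by 2.28 ± 0.23 in pull-down and 1.51 ± 0.18 in sorted cells, and was not called in IgG (-0.33 ± 0.74). Adar, which edits double-stranded RNA, rose by 0.81 ± 0.16 and 1.45 ± 0.17, and Ifi204, a DNA sensor, by 1.66 ± 0.39 and 1.87 ± 0.21.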

How the data were processed

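Raw read counts per gene over exons were deposited by the authors as 1 table per experiment (28 LPS, 15 digest and 24 driver libraries). Per the submitters' processing notes, the tools were bcl2fastq, HISAT 0.1.5 and HOMER and the build was mm9. The strand setting and the treatment of reads shared by near copies are not stated in those notes or the labels.

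Each table was fitted on its own with edgeR 4.0.16 (R 4.3.3, limma 3.58.1), with all groups of the experiment in 1 model: low genes removed with filterByExpr at its minimum count of 10 (leaving 11444, 11529 and 11868 genes), TMM scaling, robust quasi-likelihood F tests, two-sided, and Benjamini-Hochberg adjustment over all genes tested, called under 0.05. SEs are those of the fitted log2 fold changes. CPM use the TMM-scaled library sizes and were not used across tables. A group with no read was set to a floor of 3 reads. The 95% intervals and floors cover counting error only. The fit was tested on simulated data. Alternatives were other scalings, no filter, DESeq2 1.42.0, fits on the compared groups, a replicate block and leaving out each library.

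The labels state individual mice, and sorting and pull-down from the same animal, but do not say that a number marks the animal. The members, gene lists and markers were chosen with earlier results of these data known. All members may be named. Values per library are given for Ifit3, Isg15, Irf7, Rsad2, Irf1, Bst2, Ifitm3 and Stat2, and, in the LPS responses, for most of the 3 largest and 3 smallest changes among called members at 10 CPM or more. The rule named those members in every comparison, and the rest are given by fold change. Values of other members were chosen after they were seen.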

Additional observations from a re-analysis of the deposited data

Results flagged for a closer look

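In 63 sets of 4 libraries, 4 libraries stood far from the other 3, where chance sets apart about 1 in 20. Ifitm3 was at 153 CPM in LPS pull-down replicate 4, beside 271 to 283 CPM in the other LPS pull-downs, and still above PBS. Rsad2 was at 68.0 CPM in LPS IgG replicate 4, beside 113 to 120 CPM. Irf7 was at 10.6 CPM in IgG replicate 3 of the digest experiment, beside 16.2 to 16.7 CPM. Rsad2 was at 36.5 CPM in replicate 2 of the cells sorted after digest, beside 22.5 to 23.8 CPM.

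The response to LPS differed between preparations in 5 members by the test of the difference itself. Sorted cells had a smaller log2 fold change than pull-down for Ifit3 (-1.98), Rsad2 (-1.99), Mx2 (-1.75) and Isg15 (-1.15). Pull-down had a larger one than IgG for Stat2 (1.32).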

How the results depend on the processing

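The member counts of 21 of the 24 comparisons stayed within 1.5 times of their value under other scalings, without the filter, with DESeq2 and with only the compared groups. The others were small counts. The difference in LPS response between pull-down and IgG, 1 member in the fit reported, was 2 with DESeq2 size factors, 2 with total-count scaling, 2 without the filter, 3 with DESeq2 and 2 with only the compared groups. Pull-down without against with tamoxifen went from 11 to 5 with total-count scaling, and pull-down without tamoxifen against input from 5 to 8 with only the compared groups. Usp18 in LPS mice, sorted against pull-down, reversed to -0.0928 (adjusted p = 0.75) without the filter. Its reads were the same in both fits, while the TMM factors were computed anew from the genes kept. Such factors bear on every gene of that comparison and not on Usp18 alone. There the members were 17 higher and 13 lower in the fit reported and with DESeq2 size factors, and 17 and 10 with total-count scaling. The cause of the reversal was not tested. Of 449 single calls, 14 were lost with DESeq2 size factors, 29 with total-count scaling, 25 without the filter and 21 with DESeq2. With only the compared groups 402 were kept and 6 lost, and the rest were not tested in that fit. Total-count scaling moved the share of higher calls among all genes from 52.3% to 31.5% (PBS) and from 47.8% to 32.2% (LPS) for sorted pull-down against sorted cells, and from 51.8% to 28.1% for the CX3CR1Cre/WT pull-down against input. It moved it from 44.7% to 28.8% and from 46.6% to 30.4% for the tamoxifen pull-down against input and IgG, and from 47.2% to 70.3% without against with tamoxifen. Low depth limits the pull-down without tamoxifen and the sorted pull-down.

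With 1 library left out at a time, counts ranged as follows. LPS responses gave 30 to 32 members in pull-down, 12 to 16 in IgG, 26 to 28 in sorted cells and 18 to 26 in sorted pull-down. Differences in response gave 1 to 5 (sorted against pull-down), 1 to 2 (pull-down against IgG) and 0 to 0 (sorted pull-down against sorted). The count of 4 for sorted against pull-down was 1 without PBS pull-down replicate 3 or PBS sorted replicate 1 and 2 without LPS sorted replicate 3. Pull-down against IgG gave 26 to 29 in PBS, 31 to 32 in LPS, 27 to 29 in the digest and 22 to 26 in the driver experiment, and 22 to 26 against input. Sorted against pull-down gave 23 to 26 in PBS, 28 to 30 in LPS, 24 to 26 with and 25 to 27 without digest. Sorted pull-down gave 7 to 11 (PBS) and 11 to 16 (LPS) against sorted cells and 17 to 21 against pull-down. CX3CR1Cre/WT gave 4 to 6 against input and 23 to 25 against tamoxifen, and no tamoxifen gave 1 to 2 and 6 to 12.

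Whether the number in the titles pairs the libraries was not settled. The deviations of same-numbered libraries correlated at -0.104 to 0.174 in the LPS, -0.12 to 0.194 in the digest and -0.106 to 0.166 in the driver experiment. In the LPS experiment 12 of 42 pairs were over 0.1. Low correlations between libraries of few counts cannot show that the libraries are unpaired. For the LPS responses the block was the replicate number within each treatment. It joins PBS and LPS libraries of different title numbers, so it is no pairing by animal. For the other comparisons the block was the number in the titles. With the block, the LPS response counted 33 members in pull-down, 17 in IgG, 29 in sorted cells and 28 in sorted pull-down. The block ended 1 member's call, that of Oas2 in sorted pull-down against sorted cells of PBS mice (-0.99, adjusted p = 0.077).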
